A study of Mus musculus with 4 samples.

Results

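Hox cluster genes were followed through 4 mouse liver RNA sequencing libraries. They are the genes of the HoxA, HoxB, HoxC and HoxD clusters, taken as every listed symbol made of Hox, a cluster letter and a number. The rule found 39 of the 25793 gene symbols listed in each table, and every count and sum over the clusters covers all 39. Tumours 1 and 2 are labelled as liver tumours of beta-2SP+/- ; SMAD3+/- mice, heterozygous for the genes of beta-2 spectrin, an adaptor of SMAD3, and of SMAD3 itself, a transcription factor of TGF-beta signalling. A normal table is labelled as normal liver of a mouse of that same double heterozygous genotype, and another as wild type normal liver. The labels name no promoter or cell type that limits either allele, and the double heterozygous normal liver carries both as well. No treatment is labelled, no ages are stated, and the labels do not tell whether separate animals gave the tumours, so p-values measure only the spread between these samples. The short descriptions given with the samples differ: Tcell appears for both tumours, joined to Elf in tumour 1 and to Smad in tumour 2, and hepatocytes for the normal tables. The groups here follow the genotype and disease labels.

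Hox proteins are homeodomain transcription factors that give cells their position along the head to tail axis of the embryo. Within a cluster the genes are numbered in their order along the chromosome. Low numbers are anterior genes, active early and towards the head, and high numbers are posterior genes, active late and towards the tail. Genes of the same number in different clusters are paralogs, copies of the same ancestral gene. Polycomb proteins keep the clusters silent and Trithorax proteins keep them active, and many adult tissues, connective tissue cells above all, keep the Hox pattern of the body region where they arose.

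The 4 tables held 11049931 to 18448621 gene counts. Low counts of the normal tables were closer than sampling allows: among 2632 genes with a mean of 1 to 5 counts, the count was equal in 56.8%, where independent libraries would give 22.0% and the tumours gave 13.1%. As these low counts differ by less than sampling noise, the tables were counted as 1 sample, by their mean. Some genes with more reads did differ between these tables, such as Hnrnpa1 beside HoxC, with 30 and 495 counts and 28.2% of its sequence shared with other genes. Hepatocyte markers, which define the labelled tissue, summed to 168 and 155 CPM (counts scaled to a common library size) in tumours 1 and 2 against 176584 in normal liver. Most of the tumour sums was Hnf4a, at 156 and 107 CPM against 1280. The others were further below normal liver: Alb stood at 8.28 and 43.3 CPM against 124799, and Apoa1 at 1.08 and 2.58 against 18453. Ttr, Serpina1a and Cyp2e1 were no higher than Apoa1 in either tumour. Unless stated otherwise, CPM values were scaled by the trimmed mean of M values (TMM). The short descriptions name T cells, and of 6 T cell markers 5 were at 0 counts in tumour 1 and 4 of 6 in tumour 2, with summed levels of 0.606 and 0.644 CPM. In bulk tissue, fewer cells of a type and less RNA per cell cannot be told apart.

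Hox transcripts were scarce in tumour 1 and in normal liver and present across the clusters in tumour 2. All 39 genes together had 16 counts in tumour 1, 318 in tumour 2, and 26 and 28 in the normal tables labelled double heterozygous and wild type. In CPM by library size, without TMM, these sums are 1.45, 23.9, 1.63 and 1.52, so tumour 2 stood apart from the other 3 tables. At least 1 read was found for 9 genes in tumour 1, for 27 in tumour 2 and for the same 10 in each normal table. At least 10 counts were reached by 9 genes in tumour 2 and by 0 in each of the other tables. Of all listed symbols, 50.3% reached 10 counts in tumour 2, 48.3% in tumour 1, and 46.5% and 47.9% in the normal tables labelled double heterozygous and wild type, so the Hox clusters were sparsely read even in tumour 2. There, 10874 genes (42.2% of those listed) had more reads than Hoxb9, the Hox gene with the most, and the median Hox gene had 1 count where the median of all genes had 10.

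**Figure D1:**
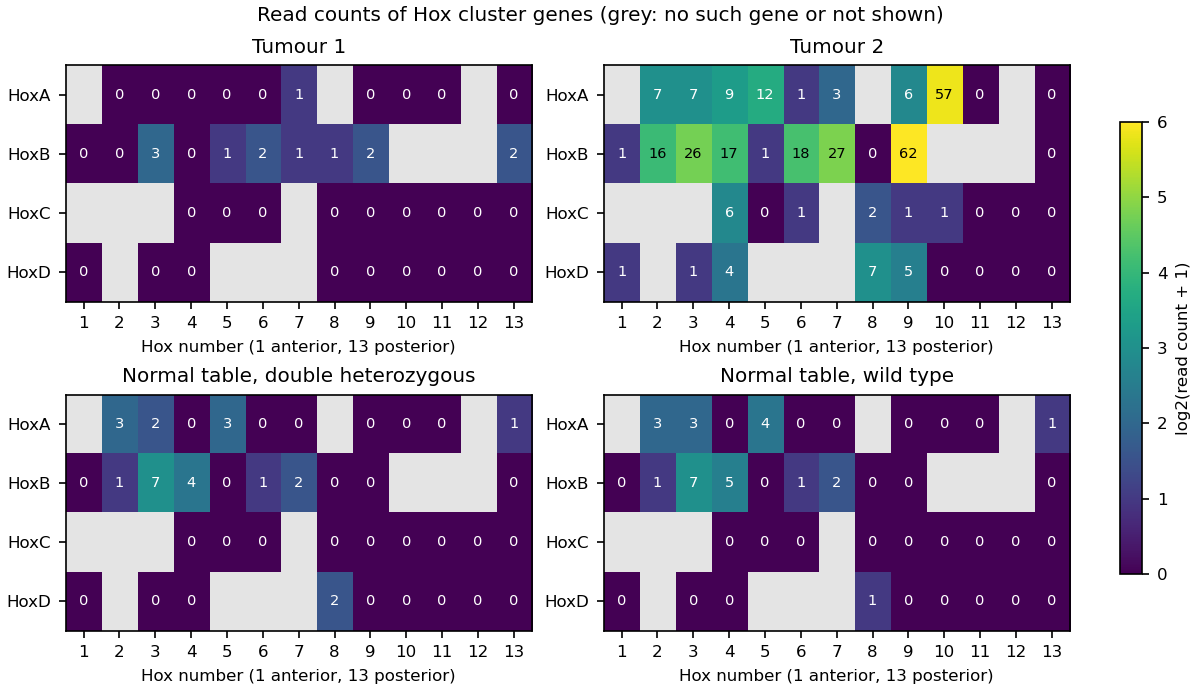
Read count of Hox genes (printed in each cell, colour on a log2(count + 1) scale) by cluster in rows and by number in columns, from 1 (anterior) to 13 (posterior), in each of the 4 tables; grey cells mark numbers that a cluster lacks or that are not shown. Tumour 2 holds reads in every cluster, none of them above number 10, and reaches 57 and 62 counts at Hoxa10 and Hoxb9, whereas no cell exceeds 3 counts in tumour 1 or 7 in the normal tables.

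The HoxA reads of tumour 2 stopped at Hoxa10, which had the most. Hoxa5, which patterns lung and other trunk organs, had 0 and 12 counts in tumours 1 and 2 and 3 and 4 in the normal tables labelled double heterozygous and wild type. Tumour 1 thus had the fewest Hoxa5 counts of the 4, but so few reads do not set it apart from normal liver. Tumour 2 was 3.19-fold above tumour 1 when the 0 is read as a floor of 3 counts, which leaves out the counting error of the 12 reads. Hoxa10, a posterior gene known for its roles in the uterus, limb and blood, had 57 counts in tumour 2 and 0 in each of the other tables. Against the same floor this was 15.1-fold above tumour 1 and 9.30-fold above normal liver. Its neighbours had far fewer reads in the same library: Hoxa9, a regulator of blood progenitors, had 6 counts and Hoxa11, needed for forearm and kidney development, had 0. Further HoxA genes of tumour 2 had 7 (Hoxa2), 7 (Hoxa3), 9 (Hoxa4), 1 (Hoxa6) and 3 (Hoxa7) counts, and Hoxa13, the most posterior, had 0. In tumour 1 the cluster held 4 counts. Hoxa2, Hoxa3, Hoxa4, Hoxa7 and Hoxa11 share 14.7% to 32.7% of their sequence words of 31 bases with other genes, so their counts are uncertain.

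The 250 bases before the annotated starts of Hoxa9, Hoxa10 and Hoxa11 are shown because Hoxa10 stood far above both of its neighbours in tumour 2. They come from the RefSeq table (build GRCm38.p6, whereas the counts were made on mm9), run 5′ to 3′ on the minus strand and have each CG dinucleotide in capitals. Hoxa10 has 2 annotated starts in that table. The reads of a gene cannot be assigned to either start from a count per gene.
Hoxa9, chr6:52227371-52227620, minus strand: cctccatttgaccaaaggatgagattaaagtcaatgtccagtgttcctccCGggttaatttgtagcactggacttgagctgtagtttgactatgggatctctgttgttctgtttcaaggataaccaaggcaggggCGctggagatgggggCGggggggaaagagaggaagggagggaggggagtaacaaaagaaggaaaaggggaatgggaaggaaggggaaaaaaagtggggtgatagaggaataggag
Hoxa10 window 1, chr6:52234940-52235189, minus strand: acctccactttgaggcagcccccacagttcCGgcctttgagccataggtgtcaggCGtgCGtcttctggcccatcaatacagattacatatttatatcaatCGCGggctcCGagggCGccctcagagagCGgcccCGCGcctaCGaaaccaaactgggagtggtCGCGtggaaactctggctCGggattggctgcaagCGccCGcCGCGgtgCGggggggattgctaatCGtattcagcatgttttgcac
Hoxa10 window 2, chr6:52240855-52241104, minus strand: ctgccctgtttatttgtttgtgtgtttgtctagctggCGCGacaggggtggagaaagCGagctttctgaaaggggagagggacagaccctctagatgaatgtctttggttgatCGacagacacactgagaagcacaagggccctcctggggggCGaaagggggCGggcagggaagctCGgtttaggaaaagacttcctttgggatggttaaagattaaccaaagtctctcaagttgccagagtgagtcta
Hoxa11, chr6:52245811-52246060, minus strand: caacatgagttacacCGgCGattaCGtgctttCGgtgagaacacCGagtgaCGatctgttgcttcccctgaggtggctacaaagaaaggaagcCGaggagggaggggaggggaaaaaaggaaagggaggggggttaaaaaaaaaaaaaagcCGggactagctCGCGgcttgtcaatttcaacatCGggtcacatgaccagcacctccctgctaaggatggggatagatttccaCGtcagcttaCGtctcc

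These windows held 3 CG dinucleotides for Hoxa9, 20 for the first and 7 for the second Hoxa10 window, and 13 for Hoxa11. In tumour 2 Hoxa9, Hoxa10 and Hoxa11 had 6, 57 and 0 reads, and a relation between CG and reads was not tested. CG-rich promoters are typical targets of Polycomb and are mostly kept free of DNA methylation, neither of which was measured here. The RefSeq table matched 22 of the 39 genes with 24 windows. Their median was 12.5 CG (range 2 to 35), against 6 over all 32851 windows of that length, and 15 of the 24 (62.5%) held at least 10 CG against 37.8% of all windows.

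HoxB was the cluster with most reads in every table. It held 168 counts in tumour 2, 12 in tumour 1, and 15 and 16 in the normal tables labelled double heterozygous and wild type. Hoxb9, which patterns the thorax and rib cage, had 2 counts in tumour 1, 62 in tumour 2 and 0 in both normal tables. The level in tumour 2 was 24.7-fold that of tumour 1 (6.55 to 208) and 10.1-fold that of normal liver with its 0 read as the floor. Hoxb7, a trunk gene studied in several carcinomas, had 1, 27, 2 and 2 counts in tumour 1, tumour 2 and the normal tables in the same order, and its adjacent gene Hoxb6 had 2, 18, 1 and 1. Both were therefore highest in tumour 2, 21.5-fold (3.55 to 881) and 7.17-fold (1.72 to 63.7) above tumour 1. Among the anterior genes, Hoxb3 had 3, 26, 7 and 7 counts and Hoxb2, a hindbrain gene, had 0, 16, 1 and 1. Hoxb4, known for its part in blood stem cell growth, had 0, 17, 4 and 5. Hoxb3 and Hoxb4 were the genes most read in normal liver, and tumour 1 was below both normal tables in counts for each. Hoxb2 and Hoxb3 share 26.5% and 50.2% of their 31-base words with other genes and are uncertain.

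Within HoxB the reads of tumour 2 were uneven. Hoxb1 and Hoxb5 had 1 count each and Hoxb8 and Hoxb13 had 0, beside neighbours with 16 to 62. Hoxb8 (1 count) and Hoxb13 (2 counts), a posterior gene of prostate and hindgut, were the members read in tumour 1 and not in tumour 2. With so few reads their difference between the tumours was not detectable at this depth.

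HoxC and HoxD were nearly silent. HoxC had 0 counts in tumour 1 and in both normal tables and 11 in tumour 2, of which Hoxc4 had 6, Hoxc8 2, and Hoxc6, Hoxc9 and Hoxc10 1 each. HoxD had 0 counts in tumour 1, 18 in tumour 2, and 2 and 1 in the normal tables labelled double heterozygous and wild type. The normal reads were all of Hoxd8. In tumour 2 Hoxd8 had 7 counts, Hoxd9 5, Hoxd4 4, and Hoxd1 and Hoxd3 1 each. The genes Hoxd10 to Hoxd13, which pattern limbs, digits and the urogenital tract, had 0 counts in all tables. Hoxd3 and Hoxd4 share 68.0% and 49.5% of their 31-base words with other genes.

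Of the Hox reads of tumour 2, 52.8% were HoxB (exact 95% binomial interval 47.2 to 58.4), 38.1% HoxA (32.7 to 43.6), 5.66% HoxD (3.39 to 8.80) and 3.46% HoxC (1.74 to 6.10). The intervals of HoxA and HoxB do not overlap each other or those of HoxC and HoxD, while those of HoxC and HoxD overlap. Divided by the length of the longest coding transcript, the shares were 54.4% for HoxB, 36.7% for HoxA, 5.07% for HoxD and 3.74% for HoxC. The order of the clusters was the same on both measures. On the scale of CPM per kilobase, Hoxb9 stood at 1.29 in tumour 2, Hoxa10 at 1.19 and Hoxb7 at 1.12. Genes at lower levels included Hoxb2 at 0.527, Hoxb6 at 0.492, Hoxb3 at 0.437, Hoxb4 at 0.355 and Hoxa5 at 0.343. These values also use the longest coding transcript. Per kilobase of all exons joined, Hoxb9 stayed at 1.29, while Hoxb7 stood at 0.938, Hoxa10 at 0.935 and Hoxb2 at 0.246. The order of the genes below Hoxb9 thus depends on the length used. In counts, the intervals of Hoxb9 (47.5 to 79.5) and Hoxa10 (43.2 to 73.9) overlap, and both lie above that of Hoxb7 (17.8 to 39.3). Reads without molecular identifiers are not independent molecules, so these intervals and floors reflect counting error only.

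**Figure D2:**
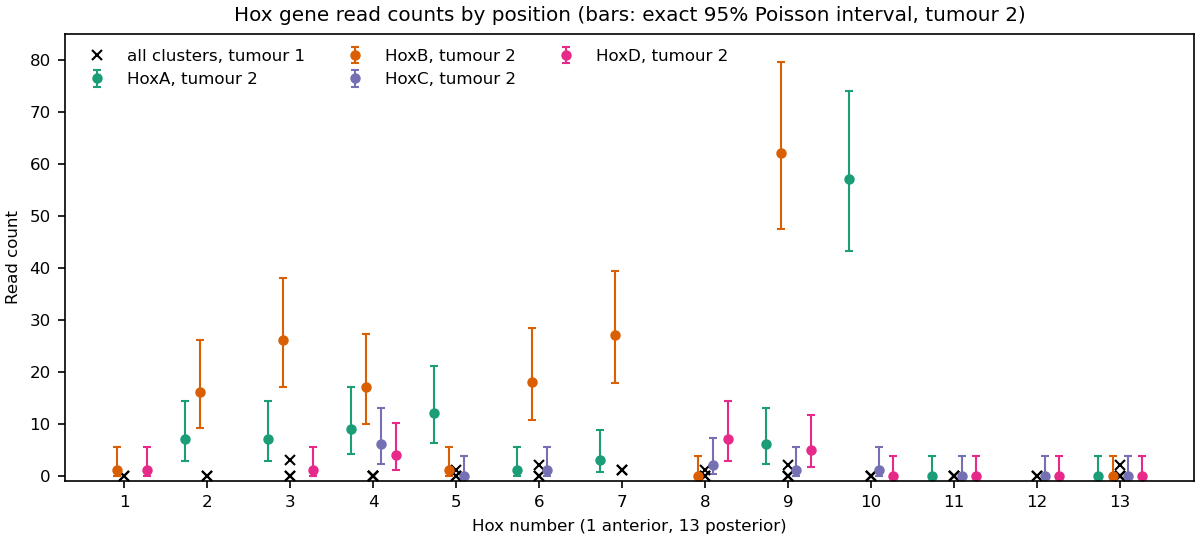
Read count of Hox genes in tumour 2 (coloured points by cluster, bars the exact 95% Poisson interval) and in tumour 1 (black crosses, all clusters) against the Hox number from 1 (anterior) to 13 (posterior). Hoxb9 and Hoxa10 stand at 62 and 57 counts, above every other gene, and numbers 11 to 13 are at 0 in tumour 2.

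By position, tumour 2 had reads from number 1 to number 10 and none from 11 to 13. Genes numbered 1 to 3 had 78 counts there, genes 4 to 8 had 108 and genes 9 to 13 had 132. In tumour 1 the same classes had 6, 6 and 4 counts. The normal table labelled double heterozygous had 13, 12 and 1, and that labelled wild type 14, 13 and 1. Normal liver thus held anterior and middle genes, and its single posterior read in each table was of Hoxa13. The posterior class made up 41.5% of the Hox reads of tumour 2 (36.0 to 47.1), 25.0% of those of tumour 1 (7.27 to 52.4), and 3.85% (0.0973 to 19.6) and 3.57% (0.0904 to 18.3) in the normal tables labelled double heterozygous and wild type. The interval of tumour 2 lies above those of the normal tables and overlaps that of tumour 1. Within tumour 2 the class rested on 2 genes: Hoxb9 and Hoxa10 had 119 of the 318 Hox reads (37.4%), and without them the posterior share was 13 of 199 reads, 6.53% (3.52 to 10.9).

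**Figure D3:**
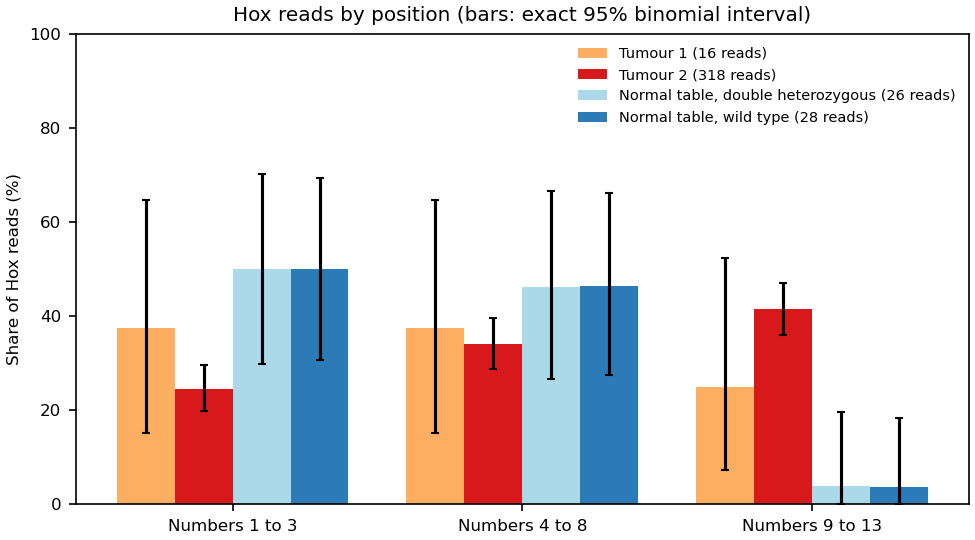
Share of each table's Hox reads (in %, bars with exact 95% binomial intervals) in genes numbered 1 to 3, 4 to 8 and 9 to 13, for the 2 tumours and the 2 normal tables. The posterior class holds 41.5% of reads in tumour 2 and under 4% in the normal tables, and the wide interval of tumour 1 reflects its 16 reads.

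Paralogs of the same number were unequally read. In tumour 2, Hoxb9 had 62 counts and its paralogs Hoxa9, Hoxc9 and Hoxd9 had 6, 1 and 5. Hoxa10 had 57 where Hoxc10 had 1 and Hoxd10 had 0. Number 4 was read in all 4 clusters, with 9, 17, 6 and 4 counts for Hoxa4, Hoxb4, Hoxc4 and Hoxd4. Numbers 9 and 10 were the groups with most reads in tumour 2, at 74 and 58 counts, and were at 0 in both normal tables. The paralogs numbered 11 and 12 had 0 counts in all 4 tables.

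The tumours were then compared with each other, 1 library against 1, with no replicate check and no test. Summed over all 39 genes, the level in tumour 2 was 15.8-fold that in tumour 1 (exact 95% Poisson interval 9.60 to 28.0), at 17.1 against 1.08 CPM. Without Hoxb9 and Hoxa10 it was 11.3-fold (6.59 to 21.1), so the difference was not carried by those 2 genes alone. HoxA was 24.1-fold (9.17 to 89.9) and HoxB 11.2-fold (6.22 to 22.0) higher, with overlapping intervals. The anterior, middle and posterior classes were 10.4-fold (4.55 to 29.1), 14.3-fold (6.38 to 39.9) and 26.3-fold (10 to 97.9) higher, again with overlapping intervals. Of the 9 genes with at least 10 counts in either tumour, 8 were over 4-fold higher in tumour 2 on the scale of log2 CPM with a prior count of 2. Over all 13582 genes with as many counts, 9.84% were over 4-fold higher in tumour 2 and 5.55% in tumour 1. All 9 reached 10 counts through tumour 2, so this count could only come out in its favour.

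Most markers of stellate cells and fibroblasts were, like the Hox genes, higher in tumour 2 than in tumour 1. Of 9 such markers, 7 were over 4-fold higher in tumour 2, against 9.84% of all genes compared, and Lum and Lrat were at 0 in both tumours. Of these, Col1a2, Pdgfra, Pdgfrb and Des reached 10 counts among the tumours only in tumour 2. Other non-epithelial lists did not follow: endothelial markers summed to 0.673 and 1.13 CPM in tumours 1 and 2 against 264 in normal liver. Macrophage markers summed to 11.2 and 4.72 CPM against 113. The summed level of the stellate and fibroblast markers was 4.85 CPM in tumour 1, 729 CPM in tumour 2 and 118 CPM in normal liver. Against normal liver these 9 markers were mixed in tumour 2: 6 were above it, while Dcn had 154 counts against 580 and 605, Lum 0 against 38 and 39 and Lrat 0 against 114 and 118. For both tumours against normal liver edgeR called 0 of the 9 higher and 0 lower, with 3 at an unadjusted p under 0.05, and DESeq2 called 1 higher and 3 lower. Of all genes tested, DESeq2 called 11.5% higher and 12.0% lower. The share of all genes at an unadjusted p under 0.05 is not given here, so such list counts have no base rate. Col1a2, which encodes a collagen I chain, had 1 count in tumour 1, 5230 in tumour 2 and 75 and 78 in the normal tables. Acta2, the smooth muscle actin gene of myofibroblasts, named after its values were seen, had 11, 2245, 5 and 7. It belongs to a list of 4 muscle markers, and the others did not follow it. Myh11, a smooth muscle myosin gene, had 1, 2, 5 and 6 counts, and Myod1 and Myog had 0 in all tables. Normal liver, with 118 CPM of the stellate and fibroblast markers, had 2.96 CPM of Hox transcripts. The part of stellate cells and fibroblasts in the Hox difference was not tested.

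Against normal liver, the Hox genes did not pass the test in either direction. The edgeR quasi-likelihood test could be made for 9 of the 39 genes, all of which passed the filter on low counts only through tumour 2. With Benjamini-Hochberg adjusted p under 0.05 as the threshold, 0 were higher and 0 lower, against 2.23% higher and 5.19% lower of the 14468 genes tested. At an unadjusted p under 0.05, 0 were called by edgeR and 0 by DESeq2, which gave 7 of the 9 no adjusted p and called 11.5% of all genes tested higher and 12.0% lower. Hoxb9 was at 0.135 and 3.33 CPM in tumours 1 and 2 and 0 in normal liver (log2 fold change 7.63, SE 4.13, adjusted p = 0.300). Hoxa10 was at 0 and 3.06 CPM in the tumours and 0 in normal liver (7.46, SE 5.14, adjusted p = 0.394), and these fitted values depend on the prior count because normal liver is at 0. The log2 fold change was 1.76 for Hoxb7 (SE 2.71, adjusted p = 0.700), 0.07 for Hoxb3 (SE 2.04, adjusted p = 0.987) and 2.25 for Hoxb6 (SE 2.74, adjusted p = 0.623). The fit has 1 residual degree of freedom, from the tumours. Without tumour 1, 6 of the 9 genes, among them Hoxa10, Hoxb2, Hoxb6, Hoxb7 and Hoxb9, passed as higher. That fit called 40.0% of all 14255 genes tested higher, and its spread comes from the 2 normal tables, which are not independent.

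Summed over the 39 genes, tumour 2 stood at 5.77-fold the normal mean (exact 95% Poisson interval 3.89 to 8.89) and tumour 1 at 0.364-fold (0.183 to 0.701). These ratios depend on the scaling. By library size only they were 15.2 and 0.922, so tumour 2 was above normal liver on both scales, and most of the distance of tumour 1 from it came with TMM. TMM placed the median log2 fold change of all genes tested at 0.19, and library size only at 1.56.

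The normal tables held the same 10 Hox genes, 6 with equal counts and the others differing by 1. Hoxb3 led with 7 counts in each, followed by Hoxb4 (4 and 5), Hoxa5 (3 and 4), Hoxa2 (3 and 3) and Hoxa3 (2 and 3) in the tables labelled double heterozygous and wild type. No Hox difference between the genotypes was detectable, and these tables share counts as described above.

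Hox proteins bind DNA with cofactors of the TALE class (Pbx, Meis and Pknox). They ranged widely in level. Pbx2 had 430 counts in tumour 1, 565 in tumour 2, and 158 and 176 in the normal tables labelled double heterozygous and wild type, and Pknox1 had 225, 459, 197 and 219. These counts are above those of every Hox gene in the same tables. Pbx4 (16, 3, 0 and 0) and Pknox2 (1, 5, 4 and 7) were named after their values were seen. Pknox2 was as low as Hox genes, and so was Pbx4 in tumour 2 and normal liver. In tumour 1 Pbx4 was above every Hox gene, of which none exceeded 3 counts. Pbx2 (log2 fold change 0.70, SE 0.60, edgeR adjusted p = 0.488) and Pknox1 (-0.20, SE 0.67, adjusted p = 0.869) did not pass. Of the 9 cofactor genes 8 were tested, 0 rose and 0 fell by edgeR, 2 had an unadjusted p under 0.05, and DESeq2 called 2 higher. Their median log2 fold change was 1.37 against 0.19 for all genes tested. For this list and those that follow, DESeq2 called 11.5% of all genes tested higher and 12.0% lower. The share of all genes at an unadjusted p under 0.05 is not given here. Between the tumours, Meis1, named after its values were seen, had 29 counts in tumour 1 and 154 in tumour 2 (4.23-fold, 2.83 to 6.53), with 17.4% of its 31-base words shared.

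Of the 21 genes in the Polycomb list, all tested, 1 rose and 0 fell by edgeR, with 3 at an unadjusted p under 0.05. DESeq2 called 2 higher and 1 lower. The list also holds the histone demethylase genes Kdm6a and Kdm6b, which oppose Polycomb and are not subunits of it. Among the 3 was Kdm6b, named after its values were seen, with 182 and 173 counts in tumours 1 and 2. The normal tables held 658 and 826 (log2 fold change -2.92, SE 0.57, edgeR adjusted p = 0.0603). The gene that rose was Cbx6, a chromodomain subunit of Polycomb repressive complexes, with 1813 and 3723 counts in tumours 1 and 2 and 38 and 37 in the normal tables (log2 fold change 5.27, SE 0.82, adjusted p = 0.041). The histone-binding subunit genes Rbbp4 and Rbbp7, named with Cbx6 for the highest mean CPM of the list, did not pass (0.07 and 1.58, adjusted p = 0.957 and 0.183), and both share sequence with other genes. Ezh2, the methyltransferase of the complex, named after its values were seen, had 422 and 1265 counts in the tumours against 43 and 64 (3.02, adjusted p = 0.128). The list median was 0.59. None of the 21 genes differed over 4-fold between the tumours, where 9.84% of all genes compared were as much higher in tumour 2 and 5.55% in tumour 1.

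Of the 12 Trithorax genes 0 rose and 0 fell by edgeR, with 3 at an unadjusted p under 0.05, and DESeq2 called 1 in each direction. Mll2 (also Kmt2d), a histone H3 methyltransferase gene, had 1059 and 1882 counts in the tumours against 3722 and 4167 (log2 fold change -2.33, SE 0.57, adjusted p = 0.0906). Ash1l was at -1.12 (adjusted p = 0.263) and Myst3 (also Kat6a), an acetyltransferase gene, at -0.40 (adjusted p = 0.648). The list median was -0.28. None of the 12 differed over 4-fold between the tumours, against 9.84% of all genes compared higher in tumour 2 and 5.55% in tumour 1. Lists this short can hold 0 such genes at those shares.

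Signals that set Hox expression in the embryo include retinoic acid and the Cdx transcription factors. Of 20 such genes 14 were tested, 0 rose and 0 fell by edgeR, 4 had an unadjusted p under 0.05, and DESeq2 called 4 higher and 2 lower. Over all genes tested, DESeq2 called 11.5% higher and 12.0% lower. The unadjusted count has no share over all genes beside it. By the rule for naming genes, Aldh1a1, which makes retinoic acid, had 5884 and 10046 counts in the tumours against 13315 and 14352 (log2 fold change -1.70, adjusted p = 0.195). The retinoid X receptor gene Rxra had 1677 and 1502 against 5858 and 6109 (-2.76, adjusted p = 0.072), and Tgif1, a homeobox repressor gene, 1159 and 768 against 166 and 211 (1.53, adjusted p = 0.246). The list median was 1.06.

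Several of these signals differed more between the tumours than the genes named by the rule did. The genes in the rest of this account of the signals were named after their values were seen. Cdx2, a direct activator of middle and posterior Hox genes in the embryo and a gene of intestinal epithelium, had 1814 counts in tumour 1, 3 in tumour 2 and 6 and 7 in the normal tables. Tumour 1 was 759-fold above tumour 2 (259 to 3684). Aldh1a3, another retinoic acid synthesis gene, had 901, 1, 1 and 1 counts and was likewise high in tumour 1 alone, 1131-fold above tumour 2 (202 to 44718). Cyp26b1, which breaks retinoic acid down, had 4, 235, 180 and 190 and was low in tumour 1 alone, with tumour 2 at 46.8-fold its level (18 to 173). Aldh1a2 had 0, 25, 1 and 1 counts and Cyp26a1 had 3, 0, 322 and 364. Against normal liver, Cyp26a1 had a log2 fold change of -8.51 (adjusted p = 0.0528), and Gdf11, a ligand that promotes posterior Hox expression in the embryo, had 114, 181, 0 and 0 counts (9.95, adjusted p = 0.06, a fitted value that depends on the prior count). Neither passed the edgeR test. The comparisons between the tumours are 1 library against 1, and the part of these signals in the Hox levels was not tested.

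**Figure D4:**
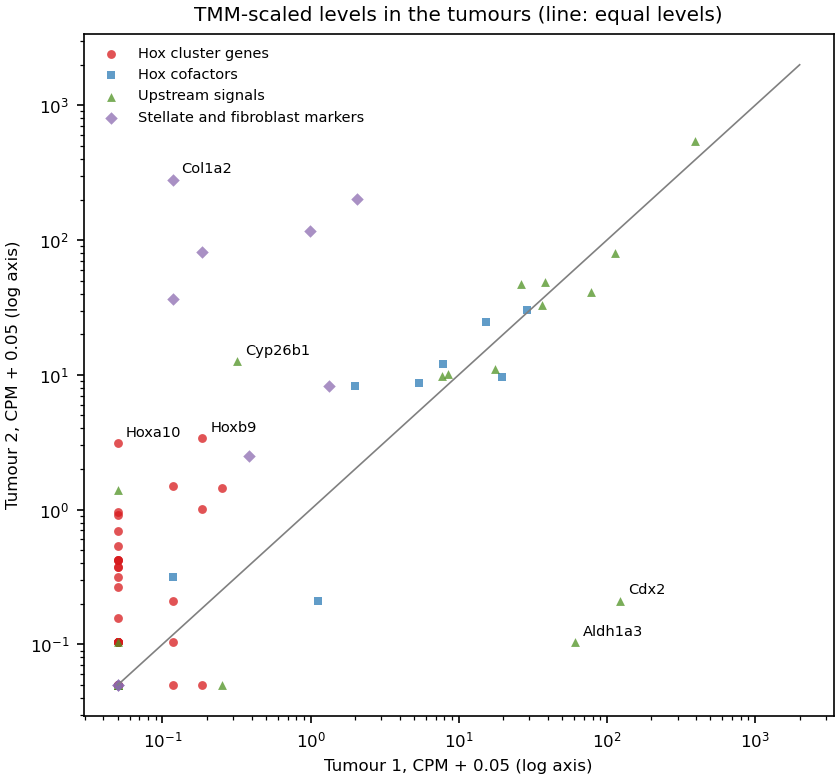
TMM-scaled level in tumour 2 against tumour 1 (CPM + 0.05, both axes log) for members of the Hox genes, Hox cofactors, upstream signals and stellate and fibroblast markers, with the line of equal levels. Most Hox genes with reads lie above the line at low levels, stellate and fibroblast markers such as Col1a2 lie far above it, most cofactors lie close to it, and Cdx2 and Aldh1a3 lie far below it.

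Most of the genes looked at beside the clusters had reads in every table. At HoxA, Skap2 had 580, 425, 207 and 243 counts (tumour 1, tumour 2, normal table labelled double heterozygous, that labelled wild type) and Snx10 had 2153, 1121, 614 and 700, both higher in tumour 1 than in tumour 2. At HoxB, Cbx1 had 329, 654, 118 and 173. At HoxC, Cbx5 had 4272, 16643, 761 and 784, and at HoxD, Mtx2 had 427, 881, 312 and 384 and Lnp 372, 993, 200 and 222. None of the 14 flanking genes tested passed by edgeR, with 1 at an unadjusted p under 0.05, and DESeq2 called 1 higher and 1 lower. The exceptions were few. The homeobox genes Evx1 and Evx2, which lie at the posterior ends of HoxA and HoxD, had 0 counts in all 4 tables, and at HoxB Skap1 had 0, 0, 1 and 1 and Calcoco2 1, 0, 0 and 0. Among non-coding genes within the clusters, 7 of 11 symbols looked for were listed. Hoxa11as, an antisense gene, had 0 counts in both tumours and 1 in each normal table, and the 6 listed microRNA genes had 0 in all tables. The sources used here do not state whether counting used strand, so reads of a Hox gene and of its antisense partner cannot be told apart.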

How the data were processed

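RNA sequencing was made from 4 samples, 2 liver tumours and 2 normal livers. Total RNA was extracted with TRIZOL and libraries were built with the Illumina TruSeq RNA kit, per the labels' protocols. The submitters' processing notes name FastQC, Trimmomatic, TopHat2 2.0.10, HTSeq, DESeq2 and build mm9. Roles, settings and the use of strand are not given in these sources. The authors deposited whole-number read counts per gene, not normalized, in 1 table per library. Another 5 lines per table name no gene and were left out: alignments in no gene (13.6%, 16.4%, 24.4% and 31.5% of the total for tumour 1, tumour 2 and the normal tables labelled double heterozygous and wild type), alignments without a unique place (45.6%, 42.3%, 51.5% and 30.7%) and ambiguous reads (at most 0.107%).

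From these counts, both tumours were compared with the rounded mean of the normal tables by edgeR 4.0.16 in R 4.3.3 (TMM scaling, low counts removed by filterByExpr at a minimum of 10, quasi-likelihood test, Benjamini-Hochberg adjusted p under 0.05 over all 14468 genes tested). The common dispersion was 0.442, and the lone normal library takes its variance from the tumours. The SE of a log2 fold change is the absolute change divided by the square root of F, so it is approximate. DESeq2 1.42.0, other scaling, no filter, each normal table alone or as separate libraries, and leaving out each tumour were alternatives. Tumours were compared with each other by log2 ratios with a prior count of 2. Exact intervals are at 95%, and each 0 was given a floor of 3 counts in its library (0.202 and 0.161 CPM in tumours 1 and 2, 0.329 CPM in normal liver). Folds against a floor use the observed count alone and leave out its counting error, so they are not lower bounds. Lengths and shared sequence come from GENCODE M21 (build GRCm38). All 39 Hox symbols and 89.2% of all symbols matched it. Of a gene's 31-mers 1 in 16 was sampled, and genes with over 10% shared with another gene are uncertain, which held for 9 Hox genes. Scripts were tested on simulated data.

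All 39 Hox genes enter the counts and sums, and some genes named by the rules are not reported here singly. Counts in every library are given for those with at least 10 counts, and statistics for up to 6 tested members of highest mean tumour CPM. Of other lists, members past the threshold and up to 3 of highest mean CPM are named. The members and lists were chosen with earlier results of these data known.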

Additional observations from a re-analysis of the deposited data

How the results depend on the processing

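The 0 Hox genes called higher and 0 called lower by edgeR held under RLE scaling, library size only, no filter, DESeq2, either normal table alone and without genes with shared sequence. The exception was the fit without tumour 1, which called 6 of 9 higher, with a spread from the normal tables, which share counts, and which called 40.0% of all genes higher. Without tumour 2, and with both normal tables as separate libraries, no Hox gene passed the filter on low counts, so these gave no value. Cofactor, Polycomb, Trithorax and upstream signal genes called higher (1) became 2 by library size only, 4 with no filter, 9 by DESeq2, 13 with separate normal tables and 25 to 29 with 1 tumour left out. Of all genes, the same fits called 4.39%, 4.88%, 11.5%, 22.6% and 38.0% to 40.0% higher. Those called lower (0) became 2 under RLE scaling, 3 with no filter, 4 by DESeq2, 10 with separate normal tables, 1 and 2 against the normal table labelled double heterozygous and that labelled wild type alone, and 17 to 20 with 1 tumour left out, where these fits called 6.48%, 7.47%, 12.0%, 23.4%, 5.69%, 6.62% and 36.5% to 37.5% of all genes lower. The cause was not tested, except that these left-out fits take their spread from the normal tables. Log2 fold changes near 0 changed sign: Hoxa5 from -0.41 to 0.95 by library size only and 0.74 without tumour 1, and Hoxb3 from 0.07 to -0.01 under RLE scaling, -0.02 by DESeq2 and -0.10 against the table labelled double heterozygous. Hoxb4 went from 0.07 to -0.0046, -0.02 and -0.09 under these settings and to -0.12 against the table labelled wild type. Hox genes over 4-fold higher in tumour 2 numbered 8 and 8 to 9 under the 3 alternatives, and the cluster shares kept within their intervals per length. With at least 1 count 27 Hox genes were detected in tumour 2, and with at least 30, 2. Over all genes the count called higher moved from 322 to 1666 and that called lower from 751 to 1743 by DESeq2. No paired analysis was possible because the labels link no tumour to a normal liver. Depth limits most members: 30 of 39 had under 10 counts in every library, and intervals cover counting error only.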

Other observations

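Other homeobox and T-box patterning genes outside the clusters were looked at after the Hox counts were seen (81 listed genes whose symbols begin as Dlx1, Msx1, Irx1, Six4, Lhx1, Nkx2-1, Emx1, Otx1, Pitx1, Gbx1, Gsx1, Pax1, Prrx1, Tbx1, Barx1, Alx1, Shox2, Meox1 and Evx1 do, up to the number). Of these, 27 had at least 10 counts in either tumour. Among them 13 were over 4-fold higher in tumour 2 and 1, Barx2, in tumour 1, against 9.84% and 5.55% of all genes compared. The examples named here were also chosen after their values were seen. Prrx1, a homeobox gene of limb and craniofacial mesenchyme, had 1 count in tumour 1, 746 in tumour 2 and 3 in each normal table. Prrx2, its close relative, had 0 and 236 counts in the tumours, Pax3, a gene of neural crest and muscle progenitors, 0 and 308, and Tbx18, a gene of mesothelial and mural cell precursors, 0 and 257, all at 0 in the normal tables. Nkx2-3, a gene of gut and spleen mesenchyme, had 0 and 189. Others had reads in both tumours: Six4 had 47 and 251, and Tbx15 179 and 57, with 0 in the normal tables. Against normal liver 29 of the 81 were tested by edgeR, 0 passed in either direction, 5 had an unadjusted p under 0.05 and DESeq2 called 5 higher. Over all genes tested, DESeq2 called 11.5% higher, and the unadjusted count has no such share beside it. As for the Hox genes, the stellate and fibroblast markers were at 4.85 and 729 CPM in tumours 1 and 2, and their part was not tested.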
